A study of Nasonia vitripennis with 23 samples.

Results

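The cuticular protein genes of the parasitoid wasp Nasonia vitripennis were examined in the heads of adult females, to find which of them were still transcribed there, how their levels varied from pool to pool and whether they moved with the number of females sharing a host patch. The members were the genes whose symbol begins with CPR and a number, or with CPF, CPLC, CPAP, CPG or TWDL, whatever the case. This gave 45 of the 14131 genes in the deposited table: 34 CPR genes, 6 Cpap3 genes, 3 CPLCP genes and 2 TWDL genes. No symbol began with CPF or CPG.

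All experimental females were of the wild-type AsymC strain, which is free of Wolbachia, and all had been given a host and then honey solution before the test. Single-foundress females were left alone with hosts for 3 h, five-foundress females were placed there with 4 co-foundresses and 10-foundress females with 9. The co-foundresses carried the red-eye mutation of the STDR strain, so that the AsymC female could be told apart, and only females that produced offspring were used. Each library came from 12 pooled heads, so that the pool, and not the female, was the unit of replication. Females were set up over 3 days in equal numbers, and the labels give no day for any pool, so that a day effect could not be separated from the spread between pools.

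Of the 23 libraries, 8 were from single-foundress, 7 from five-foundress and 8 from 10-foundress females. The study set replicate 2 of the single-foundress group aside as an outlier, and it is left out of every value below unless it is named. The other 22 libraries held between 25194329 and 69696501 reads counted on genes (median 35208315). Levels are given as CPM, the reads of a gene for every 1000000 reads of its library after TMM scaling. CPM is not corrected for transcript length, so that it ranks the genes by the reads they received and not by the abundance of their transcripts. A whole head holds antennae, eyes, muscle, fat body and epidermis besides the brain, and in such pools fewer cells of a type cannot be told apart from less RNA per cell.

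Insect cuticle is a layered material of chitin fibres set in protein, secreted by the epidermis. It covers the body surface, the antennae, the mouthparts, the tendons, the tracheae and the lenses of the compound eye. Most of it is laid down around each moult, and in many insects further layers are added for some days after adult emergence. CPR proteins, the largest family of cuticular proteins in most insects, carry the Rebers and Riddiford sequence that binds chitin. Cpap3 proteins are analogous to peritrophins and hold 3 chitin-binding domains; in Drosophila their relatives, the obstructor proteins, help to order the chitin matrix. CPLCP proteins are rich in proline and of low sequence complexity, and TWDL (Tweedle) proteins are named after a Drosophila mutant with a short, stout body.

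Of the 45 genes, 43 received at least 1 read over the 22 libraries, 26 were read in every library and 17 had at least 10 reads in every library. A gene was called transcribed at a mean of 1 CPM or more, which 18 of the 45 members reached. Of all genes, 10167 (72.0%) reached it. A further 9 members had a mean between 0.1 and 1 CPM, and 16 members with a read stayed below 0.1 CPM. No read fell on CPR5 or CPR6, which allows a level of up to 0.0036 CPM over the 22 libraries, for counting error only. A level of 10 CPM was reached by 8 members and a level of 100 CPM by 3.

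By family, all 6 Cpap3 genes reached 1 CPM, whereas 10 of the 34 CPR genes, 1 of the 3 CPLCP genes and 1 of the 2 TWDL genes did. The CPR family nevertheless took most of the reads, with a summed mean of 618.6 CPM against 64.6 CPM for Cpap3, 6.07 CPM for CPLCP and 1.75 CPM for TWDL.

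**Figure D1:**
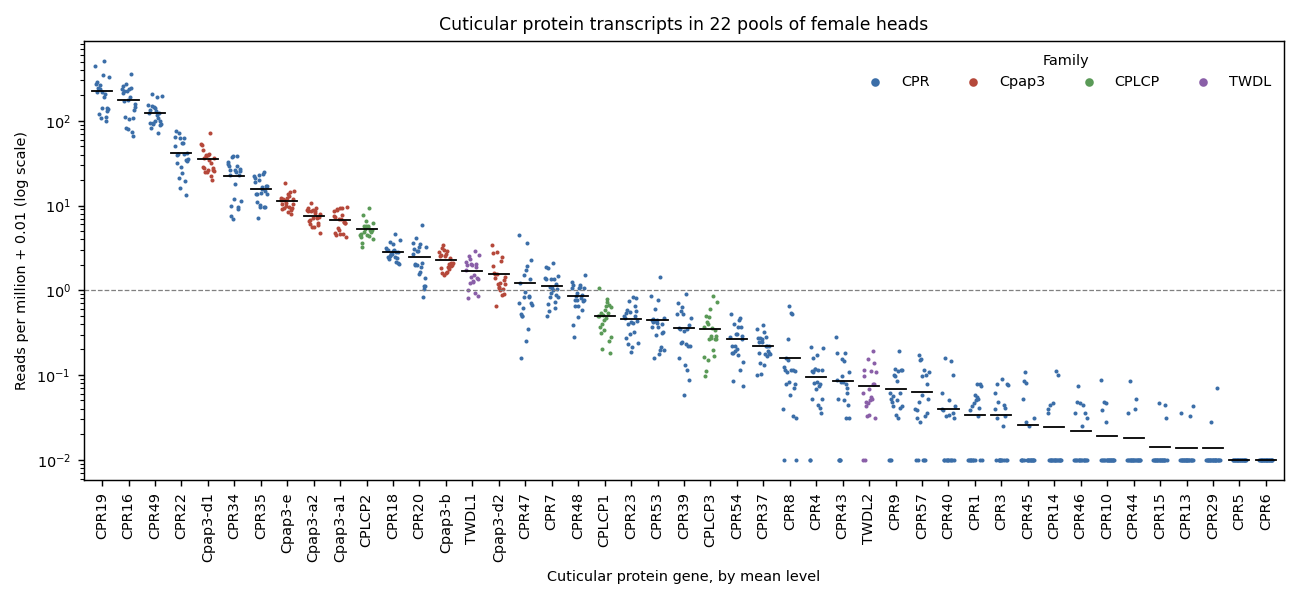
Level of each of the 45 cuticular protein genes in the 22 pools, in CPM with 0.01 added so that a pool with no read can be drawn on the log axis. Each point is a pool, the black bar is the mean, the colour gives the family and the dashed line marks 1 CPM; 18 genes lie above the line by their mean, and CPR5 and CPR6 stay at 0 reads in every pool.

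Most of the reads came from a few CPR genes. CPR19 took 32.9% of all reads on members, CPR16 25.5% and CPR49 18.0%, together 76.4%. The next in order were CPR22 with 6.03%, Cpap3-d1 with 5.09%, CPR34 with 3.26%, CPR35 with 2.28% and Cpap3-e with 1.65%.

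CPR19 lay between 121.0 and 443.1 CPM in the single-foundress pools (median 245.1), between 109.3 and 343.6 CPM in the five-foundress pools (median 220.7) and between 98.8 and 512.4 CPM in the 10-foundress pools (median 140.1). The 10-foundress group held both the lowest pool, replicate 20, and the highest, replicate 17, so that its range enclosed those of the other groups. CPR16 lay between 83.2 and 256.0 CPM (median 215.8), between 79.4 and 270.8 CPM (median 193.2) and between 66.6 and 354.5 CPM (median 139.3) in the same order of groups. Its lowest and highest pools were again 10-foundress replicates 20 and 17. CPR49 lay between 83.1 and 205.8 CPM (median 135.6), between 90.6 and 145.4 CPM (median 116.4) and between 72.5 and 197.7 CPM (median 104.7). Its highest pool was single-foundress replicate 7 and its lowest 10-foundress replicate 18, neither of which was extreme for CPR19.

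CPR22 ranged from 13.3 to 75.1 CPM over the 22 pools (mean 41.7 ± 18.2, SD). CPR35 ranged from 7.13 to 24.7 CPM (mean 15.8 ± 5.12). CPR34 lay between 7.61 and 32.8 CPM in the single-foundress pools (median 26.3), between 6.95 and 38.2 CPM in the five-foundress pools (median 25.0) and between 9.08 and 38.8 CPM in the 10-foundress pools (median 24.4), and the groups covered nearly the same range. The remaining transcribed CPR genes were CPR18 (mean 2.85 CPM), CPR20 (2.43 CPM), CPR47 (1.20 CPM) and CPR7 (1.12 CPM).

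Of the Cpap3 genes, which were read in every pool, Cpap3-d1 stood highest, with 20.3 to 72.2 CPM over the pools (mean 35.1 ± 12.3, SD, n = 22). Cpap3-e followed with 7.93 to 18.3 CPM, Cpap3-a2 with 4.76 to 10.8 CPM and Cpap3-a1 with 4.21 to 9.56 CPM. Cpap3-b had 1.52 to 3.38 CPM and Cpap3-d2 0.651 to 3.4 CPM. The lowest count of any Cpap3 gene in any library was 20 reads, in Cpap3-d2.

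In the small families, CPLCP2 had 3.24 to 9.22 CPM (mean 5.24), while CPLCP1 and CPLCP3 had means of 0.489 and 0.335 CPM. TWDL1 had 0.802 to 2.88 CPM (mean 1.68), while TWDL2 had 0 to 8 reads per library (mean 0.0635 CPM).

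Summed over the 45 genes, the level was 461.9 to 1048 CPM in the single-foundress pools (median 710.2), 439.5 to 898.3 CPM in the five-foundress pools (median 682.9) and 381.9 to 1290 CPM in the 10-foundress pools (median 529.5). The means were 753.0 ± 192.6 (SD, n = 7), 683.6 ± 175.0 (n = 7) and 643.4 ± 303.9 (n = 8). The ranges overlapped throughout, and without 10-foundress replicate 17, the highest pool, the 10-foundress mean was 551.1 CPM.

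Transcribed and unread members are set out next by their place in the genome. In the gene order of the RefSeq assembly Nvit_psr_1.1, which is not the assembly used for mapping and served for order only, all 45 members were found by symbol. Of these, 30 lay in 7 groups in which no more than 5 other genes separated a member from the next, and 15 lay alone. The largest group ran from CPR1 to CPR15 and held 12 genes, of which CPR7 (1.12 CPM) alone reached 1 CPM. The others had at most 0.147 CPM, which was CPR8, and CPR5 and CPR6 had no read; the whole group summed to 1.48 CPM. By contrast, all 4 genes of the group CPR20, CPR19, CPR18 and CPR16 were transcribed, with a summed mean of 408.7 CPM. All 5 genes of the group Cpap3-d2, Cpap3-d1, Cpap3-a2, Cpap3-a1 and Cpap3-b were transcribed as well, with 53.3 CPM in sum. In the groups of CPR43 to CPR45 and of CPR39 with CPR40 no gene reached 1 CPM, and in the pairs CPR46 with CPR47 and TWDL1 with TWDL2 only CPR47 and TWDL1 did. Neighbours of like sequence can share reads, and the study did not count some reads that mapped ambiguously. Levels within a group are uncertain to that extent.

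The levels of many of the transcribed members were variable between pools. The SD of log2(CPM + 0.5) over the 22 pools had a median of 0.43 in the 18 members and of 0.29 in the 10167 genes at 1 CPM or more, and 14 of the 18 lay above the latter value. The most variable were CPR34 (0.79), CPR47 (0.75), CPR22 (0.69), CPR16 (0.69), CPR19 (0.67), CPR20 (0.58), CPR35 (0.48) and Cpap3-d2 (0.46). CPR18 (0.25), Cpap3-a2 (0.28), Cpap3-b (0.29) and Cpap3-e (0.29) varied least, below the median of all genes at 1 CPM or more. Many members varied together, as set out below, so that 14 of 18 does not count separate observations. CPR47 had the widest relative range, from 0.148 CPM (7 reads) in single-foundress replicate 5 to 4.54 CPM (151 reads) in single-foundress replicate 1.

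The order of the leading genes was not the same in every pool. The ratio of CPR19 to CPR49 went from 0.752 in five-foundress replicate 12 to 2.95 in single-foundress replicate 6, and was above 1 in 19 pools and below it in 3. The ratio of CPR19 to CPR16, which are neighbours, went from 0.834 to 2.29, with 18 pools above 1 and 4 below. The ratio of CPR34 to CPR49 spanned 0.0476 in single-foundress replicate 7 to 0.535 in 10-foundress replicate 18.

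**Figure D2:**
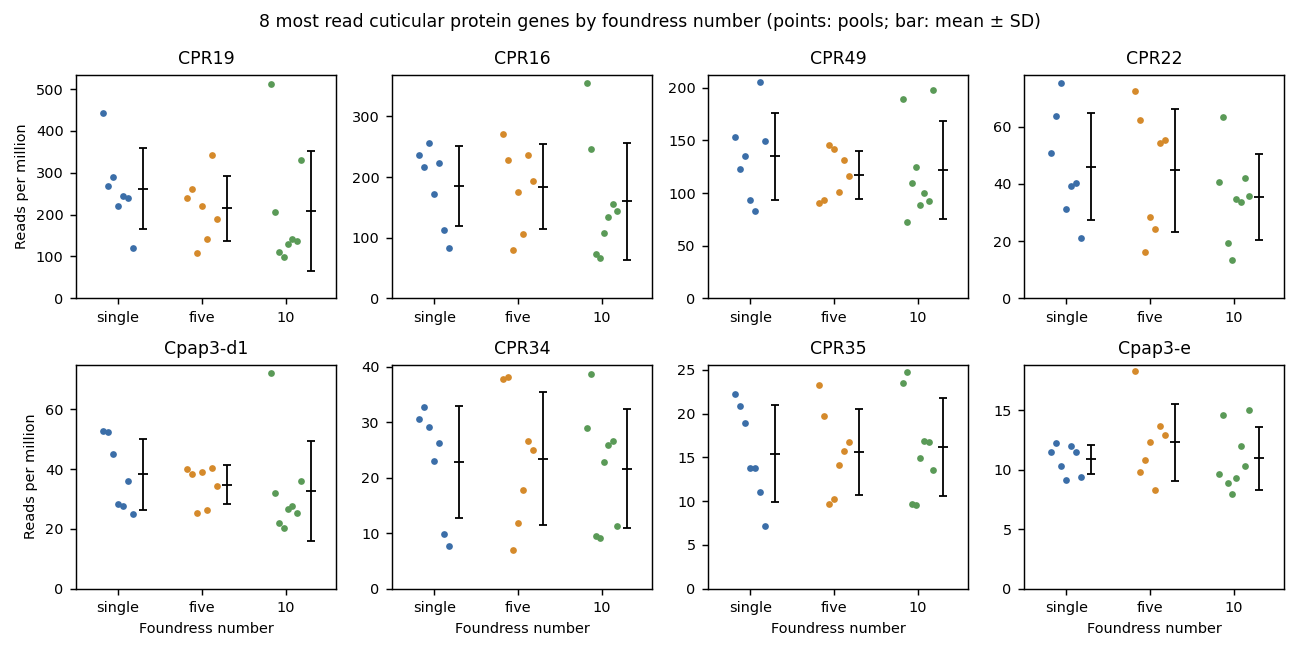
CPM of the 8 most read members by foundress number, with 7 single-foundress, 7 five-foundress and 8 10-foundress pools; each point is a pool and the bar beside it the mean ± SD. The groups overlap in every panel, replicate 17 is the high 10-foundress point for CPR19, CPR16 and Cpap3-d1, and CPR34 spans 6.95 to 38.8 CPM.

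Many of the transcribed members varied together. Over the 153 pairs of the 18 members, Pearson's r of log2(CPM + 0.5) had a median of 0.37, with 34.0% of pairs above 0.5. Over all pairs of the genes at 1 CPM or more the median was -0.01, with 16.2% above 0.5. Values of r between neighbours had a median of 0.58 over 16 pairs, against 0.35 over 137 pairs of members that were not neighbours. All points come from the same 22 libraries and share their scaling, and these figures are descriptions with no test.

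The 18 genes fell into 2 blocks by average linkage, a division that was made once the values had been seen. The first held CPR19, CPR16, CPR22, CPR34, CPR35, CPR20, Cpap3-d1, Cpap3-d2, Cpap3-e and Cpap3-a2, with a median r of 0.61 among them. The other held CPR49, TWDL1, Cpap3-a1, CPR18, CPLCP2, Cpap3-b, CPR7 and CPR47, with a median r of 0.53. Between the blocks the median was 0.12, and 30 of the 80 pairs were below 0. Families and neighbours were divided between the blocks: Cpap3-a1 and Cpap3-b stood apart from the other 4 Cpap3 genes, and CPR18 apart from CPR16, CPR19 and CPR20.

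The extreme pools of the first block were largely shared. Single-foundress replicate 8 was the lowest of its group for 8 of the 10 genes, five-foundress replicate 12 for 7 and 10-foundress replicate 20 for 7. Five-foundress replicate 10 was the highest of its group for 6 of the 10 genes and 10-foundress replicate 17 for 5. In the other block single-foundress replicate 6 was the lowest of its group for 5 of the 8 genes, and 10-foundress replicates 18 and 23 for 4 each.

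**Figure D3:**
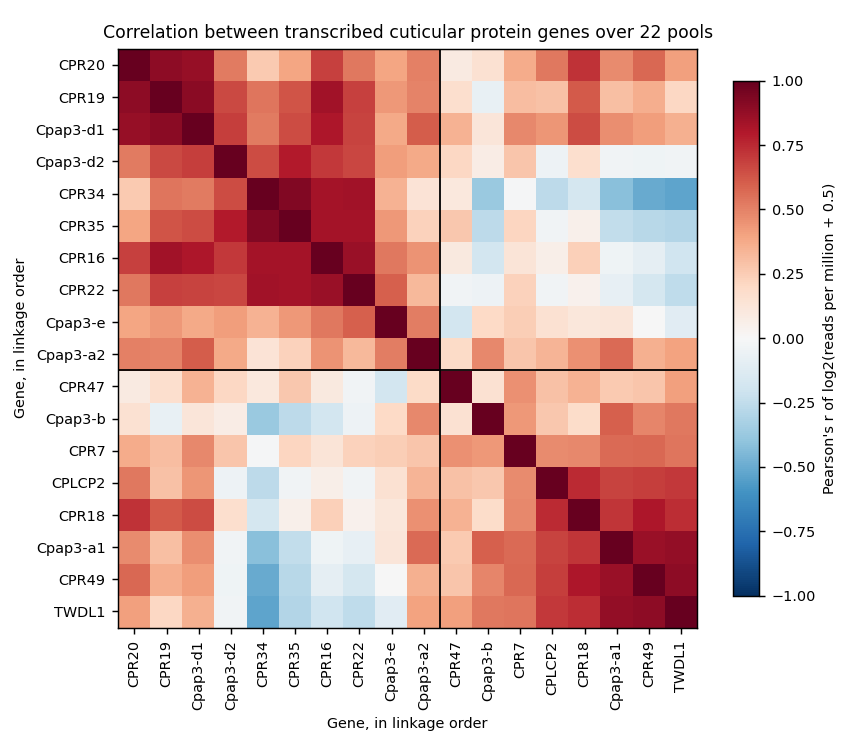
Pearson's r of log2(CPM + 0.5) over the 22 pools between the 18 members at a mean of 1 CPM or more, in linkage order; red is positive, blue negative, and the black lines part the 2 blocks. The block of 10 genes at the upper left has a median r of 0.61, that of 8 genes at the lower right 0.53, and the area between them 0.12.

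All 28 pairs of the 8 most read members were tested with 100000 permutations of the pools and Benjamini-Hochberg adjustment over the 28. Of the 28 pairs, 18 passed an adjusted p of 0.05 for r, 17 of them positive and 1 negative. Each p sets r against no relation over the pools. The share of all gene pairs that would pass was not taken, and 16.2% of them had an r above 0.5. The count of 18 therefore cannot be read as particular to the members. CPR34 and CPR35 were the closest, at r = 0.93 (rho 0.94, adjusted permutation p = 3.5e-05 and 4e-05, 0.91 without the 2 pools farthest from the median). CPR19 rose with Cpap3-d1, which lies in another group of neighbours, at r = 0.91 (Spearman's rho 0.91, adjusted permutation p = 3.5e-05 and 4e-05, 0.86 without the 2 pools farthest from the median). It rose with its neighbour CPR16 at r = 0.84 (rho 0.79, adjusted permutation p = 3.5e-05 and 9.33e-05, 0.78 without the 2 farthest pools). CPR16 rose with CPR22 at r = 0.86 (rho 0.85, adjusted permutation p = 3.5e-05 and 4e-05, 0.80 without the 2 farthest) and with CPR35 at r = 0.84 (rho 0.83, adjusted permutation p = 3.5e-05 and 4e-05, 0.80 without them). The adjusted p of 3.5e-05 and 4e-05 rest on a raw p of 1e-05, the smallest that 100000 permutations can give. With the group means removed, the last 4 values of r were 0.90, 0.85, 0.85 and 0.87.

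CPR49 rose significantly with none of the other 7 members. Its r was 0.42 with Cpap3-d1 (rho 0.29, adjusted permutation p = 0.069 and 0.212), 0.36 with CPR19 (rho 0.29, adjusted permutation p = 0.12 and 0.212) and -0.09 with CPR16 (rho -0.12, adjusted permutation p = 0.704 and 0.622), none of which passed. With CPR34 it gave the negative pair, at r = -0.50 (adjusted permutation p = 0.0284), which did not pass by rho (-0.42, adjusted permutation p = 0.0726) and was -0.38 without the 2 farthest pools. Within the single-, five- and 10-foundress pools this r was -0.52, -0.79 and -0.42. Outside the 28 tested pairs it followed TWDL1 (r = 0.90), CPR18 (0.81) and other members of its block, as a description.

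Marker genes of other cell types moved with some of the members, and 56 such relations were tested in the same way, with adjustment over the 56. Markers were Lop1, a long-wavelength opsin of photoreceptors (5579 to 12030 CPM over the 22 pools), 214 odorant receptor genes of antennal neurons (211 with a read, 156.5 to 969.0 CPM in sum), Syt1 and Para of neurons (238.5 to 383.7 CPM), the tropomyosins Tm1 and Tm2 of muscle (409.3 to 1159 CPM), 3 hexamerins of fat body (9.58 to 25.4 CPM) and oskar, nanos and cycB of ovary, germline and dividing cells (8.39 to 16.3 CPM). No list summed to 0 in any pool. The last measure was the total count of the library, which passed by r with 0 of the 8 members. By rho it passed with CPR49 alone, at -0.54 (adjusted permutation p = 0.0285), where r was -0.49 (adjusted permutation p = 0.052). Tropomyosins are also made outside muscle, and each list rests on few genes, apart from the receptors.

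Of the 56 relations, 21 passed an adjusted p of 0.05 for r, 14 of them positive and 7 negative. Muscle genes passed with 6 of 8 members and odorant receptors with 5 of 8, always positive, and the neuronal genes with 6 of 8, always negative. Opsin passed with CPR49, positive, and with CPR34, negative. Among the 8 tested members, hexamerins and the germline genes passed with CPR49 alone, which was the only tested member of its block. The share of all genes that would pass with the same lists was not taken. These counts therefore cannot be read as particular to the members. The part that cell or tissue composition of the pools had in these relations was not tested.

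For the muscle genes, Cpap3-d1 followed the summed tropomyosins at r = 0.92 (rho 0.92, adjusted permutation p = 0.000112 and 0.000187) and CPR19 at r = 0.91 (rho 0.90, adjusted permutation p = 0.000112 and 0.000187). Without the 2 pools farthest from the median tropomyosin level they stood at 0.90 and 0.88. Within the single-, five- and 10-foundress pools the values for CPR19 were 0.89, 0.93 and 0.95. Both extreme pools of CPR19 were near the ends of the tropomyosin range: 10-foundress replicate 20 had 432.6 CPM and replicate 17 had 1159 CPM, the highest of all.

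For the odorant receptors, CPR35 gave r = 0.85 (rho 0.79, adjusted permutation p = 0.000112 and 0.00028, 0.77 without the 2 farthest pools) and CPR16 gave r = 0.67 (rho 0.69, adjusted permutation p = 0.00426 and 0.00274, 0.56 without them). Within groups CPR35 had r of 0.94, 0.87 and 0.79 at rising foundress number. CPR34 gave r = 0.74 (rho 0.76, adjusted permutation p = 0.00048 and 0.0007, 0.62 without the 2 farthest pools). CPR19 passed by r (0.50, adjusted permutation p = 0.0473) but not by rho (0.46, adjusted permutation p = 0.0794), and its r was 0.37 without the 2 farthest pools.

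CPR49 followed the opsin Lop1 at r = 0.80 (rho 0.84, adjusted permutation p = 0.00028 for both, 0.84 without the 2 farthest pools). Within the 3 groups r was 0.94, 0.71 and 0.82. Its values with the germline genes (r = 0.79, rho 0.81, adjusted permutation p = 0.000112 and 0.00028) and with hexamerins (r = 0.66, rho 0.60, adjusted permutation p = 0.00485 and 0.0154) were of the same sign. The relation with the germline genes was held by the 22 libraries alone and was -0.08 with single-foundress replicate 2 included. Of the members outside the tested 8, TWDL1 (r = 0.80) and Cpap3-a1 (0.79), both of the same block as CPR49, also followed Lop1. TWDL1 and Cpap3-a1 gave 0.69 and 0.73 with the germline genes, and 0.65 each with hexamerins, as a description. Other genes of the block were lower, such as CPR47 with the germline genes (0.13) and Cpap3-b with hexamerins (0.14). CPR34 fell as Lop1 rose, at r = -0.59 (adjusted permutation p = 0.012, -0.58 without the 2 farthest pools), though not past the threshold by rho (-0.45, adjusted permutation p = 0.0889). Within the 3 groups r was -0.39, -0.75 and -0.67.

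**Figure D4:**
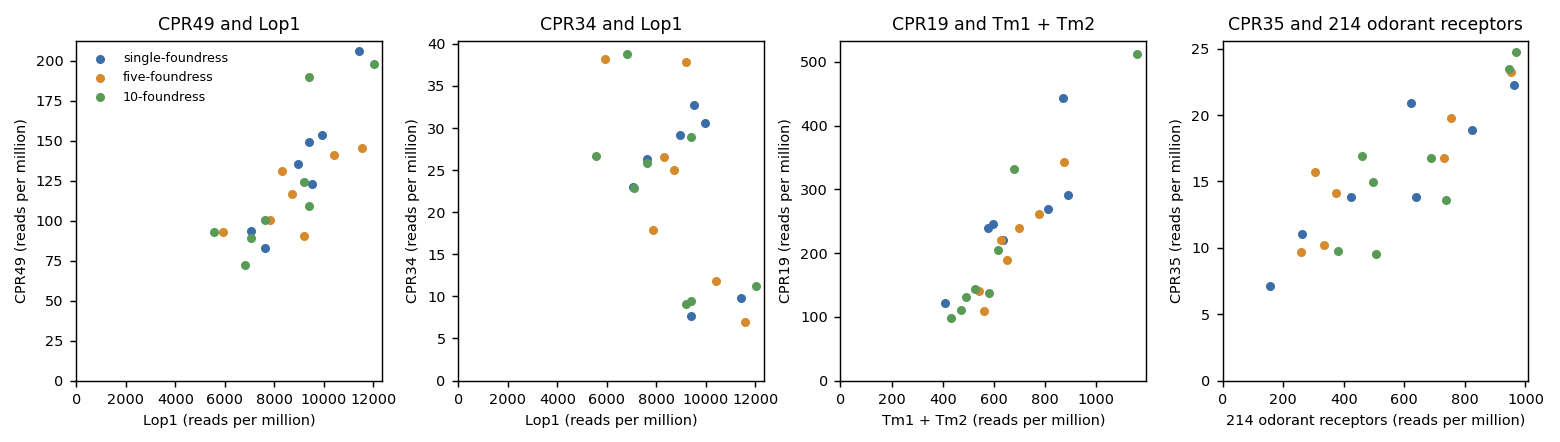
CPM of a cuticular protein gene against the CPM of Lop1 (CPR49 and CPR34), the summed CPM of Tm1 and Tm2 (CPR19) and of 214 odorant receptors (CPR35); each point is 1 of the 22 pools, coloured by foundress number, and the axes start at 0. CPR49 rises with Lop1 (r = 0.80), CPR19 with the tropomyosins (0.91) and CPR35 with the receptors (0.85), while CPR34 falls with Lop1 (r = -0.59).

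The comparison by foundress number asked whether cuticular protein transcription responded to co-foundresses within the 3 h of oviposition. With edgeR's quasi-likelihood test and adjustment over 13599 genes, 0 of the 43 members with a read passed an adjusted p of 0.05, whether in any of the 3 pairwise comparisons or in the test over all 3 groups. Nor did any member pass by DESeq2 or limma-voom. The smallest adjusted p of a member was 1 for single- against five-foundress and five- against 10-foundress pools, 0.952 for single against 10 and 0.994 over the 3 groups, while 0% of all genes passed in any of the 4 tests.

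At an unadjusted p below 0.05 there were 2 members when single- and five-foundress pools were compared, where 1.76% of all genes had such a p, and 0 when five- and 10-foundress pools were compared (1.81% of all genes). There were 3 members in the single- versus 10-foundress comparison (3.18% of all genes) and 1 in the test over the 3 groups (1.96%). Without 10-foundress replicate 17 the counts were 2 for five- against 10-foundress pools and 6 for single- against 10-foundress pools, and limma-voom gave 6 and 9. The share over all genes was not taken in these settings, so that these counts cannot be read as a result about the members. Which members those settings gave is not set out here. Each of the members that edgeR gave with all 22 libraries had few reads. CPR9 had a total of 50 reads over the 22 libraries and 0 to 8 in any of them, and its edgeR p was 0.0267 for single- against five-foundress pools, 0.00827 for single against 10 and 0.0239 over the 3 groups. CPR8 had 0 to 22 reads per library, CPR10 0 to 3 and CPR1 0 to 3. Their edgeR p was 0.0306 for CPR8 between single- and five-foundress pools and 0.0283 for CPR10 and 0.0469 for CPR1 in the single- versus 10-foundress comparison. Counts so low give no firm fold change.

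Among the 18 transcribed members, the log2 fold change, taken as more over fewer foundresses, lay between -0.41 and 0.25 from single- to five-foundress pools, between -0.34 and 0.18 from five- to 10-foundress pools and between -0.42 and 0.22 from single to 10. The smallest edgeR p was 0.179, 0.301 and 0.068, the last for Cpap3-b, at -0.35 ± 0.18 (SE). The fold change was negative in 13, 14 and 14 of the 18 members, and in 47.2%, 44.8% and 46.6% of the genes at 1 CPM or more. The members move together in blocks, so that these counts do not stand for 18 separate observations.

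CPR19 had a log2 fold change of -0.28 ± 0.34 (SE) from single- to five-foundress pools and of -0.33 ± 0.33 from single to 10 foundresses (edgeR, adjusted p = 1 and 0.952). CPR16 had -0.01 ± 0.34 and -0.21 ± 0.33, and CPR49 had -0.21 ± 0.22 and -0.15 ± 0.21. In this fit all 6 changes were smaller than their standard error or about equal to it. Their size depended on the setting: from single to 10 foundresses, alternative fits gave -0.94 to -0.33 for CPR19 and -0.91 to -0.21 for CPR16. CPLCP2 had the largest positive change among the transcribed members in both of these comparisons, at 0.25 ± 0.18 and 0.22 ± 0.18. The median standard error of the members was 0.27, 0.26 and 0.26 in the 3 pairwise comparisons, against 0.16 in all genes at 1 CPM or more, so that a change had to be larger in these genes to pass the test.

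**Figure D5:**
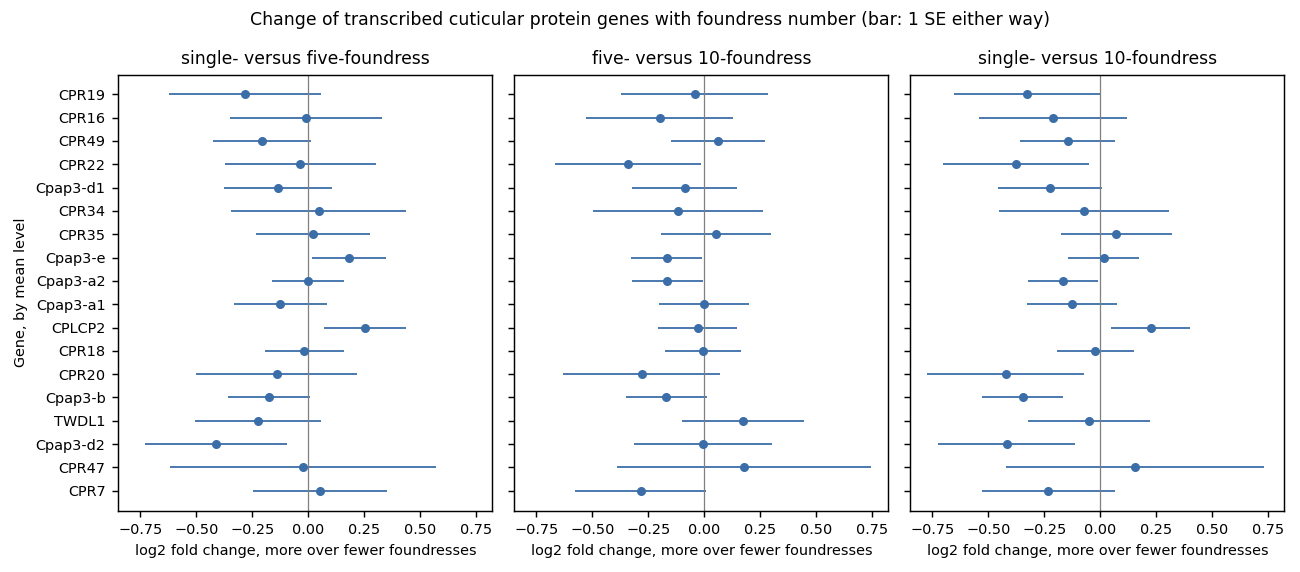
Log2 fold change with 1 SE either way of the 18 transcribed members, by edgeR, in the 3 pairwise comparisons of foundress number; values right of 0 are higher with more foundresses. The changes run from -0.42 to 0.25, and no member passes an adjusted p of 0.05.

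Other genes of cuticle formation and moulting were read in the same libraries, from lists matched by symbol. Cht5, a chitinase that breaks down chitin at the moult, had 14.6 to 31.1 CPM (median 23.7) and did not pass in any comparison. The 9 genes of the yellow family, to which proteins of cuticle pigmentation belong in Drosophila, summed to 88.7 to 208.9 CPM. Of them 0 passed an adjusted p of 0.05, and 2 were lower at an unadjusted edgeR p below 0.05 in the single- versus 10-foundress comparison: Y-x1c at -0.36 ± 0.17, whose p was 0.0495, and Y-g2b, which had at most 2 reads in a library. Eh1, an eclosion hormone gene, had 255.4 to 522.9 CPM, with log2 fold changes of -0.01, -0.04 and -0.05. The 2 genes named Burs, for the hormone bursicon that hardens new cuticle, had at most 1 and 3 reads in a library. The ecdysone receptor gene Ecr had 2.22 to 26.7 CPM and did not pass. CYP314A1, the hydroxylase that makes the active moulting hormone, had 5.87 to 10.5 CPM and a log2 fold change of 0.45 ± 0.10 in the single- versus 10-foundress comparison, for which edgeR gave a p of 0.000181 and an adjusted p of 0.577.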

How the data were processed

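RNA from pools of 12 heads was sequenced as oligo-dT-selected, paired-end libraries. Deposited values are raw read counts for each gene as the authors made them: they trimmed adapters (cutadapt 1.8.3), aligned reads to assembly Nvit 2.1 (TopHat2 2.0.14) and counted them in union mode (HTSeq, version given as 6.0.1), which leaves out ambiguous reads. Whether counting used the strand is not given in the sources used here, so that overlapping genes on opposite strands are uncertain. Depth was 25194329 to 69696501 reads per library.

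The labels gave each library its foundress number. Counts of the 22 libraries were fitted with edgeR 4.0.16 under R 4.3.3 (TMM, at least 1 read over the libraries, 3 groups in 1 quasi-likelihood fit, Benjamini-Hochberg adjustment over 13599 genes), after tests on simulated counts. Correlations used log2(CPM + 0.5), for which 100000 permutations were drawn (scipy 1.17.1, numpy 2.4.6). DESeq2 1.42.0, limma 3.58.1 (voom with quality weights), other scalings and filters, fits of 2 groups, all 23 libraries, and single libraries left out in turn were alternatives.

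The members and lists were chosen with earlier results of these data known. Members were named by the 12 highest means, the 8 largest and 4 smallest SDs, the 3 smallest p per test, all genes outside CPR, and those with no read; others were chosen after their values were seen. No sequences or transcript lengths were used. Nothing in the labels says that pools with different numbers shared a culture or day. The edgeR p-values set a difference between groups against the spread between pools, and the permutation p-values set a correlation against shuffled pools.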

Additional observations from a re-analysis of the deposited data

Results flagged for a closer look

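The highest and lowest pool of each transcribed member were compared with the rest of their group, in 54 groups of values for 18 genes. By Dixon's criterion 6 values, in 5 pools, stood apart. Its rate of about 1 group in 20 by chance holds for separate, normally distributed values. The values here were CPM without logs, and the members move together, so that 6 cannot be set against that rate. In 10-foundress replicate 17 Cpap3-d1 stood at 72.2 CPM (next pool 36.1 CPM) and CPLCP2 at 9.22 CPM (next 6.17 CPM). CPLCP2 stood at 7.63 CPM in single-foundress replicate 7 (next 4.88 CPM), CPR47 at 4.54 CPM in single-foundress replicate 1 (next 1.21 CPM), Cpap3-d2 at 2.84 CPM in five-foundress replicate 10 (next 1.53 CPM) and CPR7 at 2.1 CPM in five-foundress replicate 16 (next 1.35 CPM). All 6 values were the highest of their group.

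Single-foundress replicate 2, which entered no comparison, held the widest departure of a member. CPR39 had 1209 reads there, or 22.0 CPM, against 2 to 27 reads and at most 0.881 CPM in the other 22 libraries. Unscaled, this was 23.1 CPM, with an exact 95% interval of 21.8 to 24.4 CPM that covers counting error only. Its neighbour CPR40 had 19 reads, or 0.346 CPM, against at most 0.152 CPM elsewhere (unscaled 0.362 CPM, 0.218 to 0.566). Of the 26 members with at least 10 reads in this library, 2 were above and 3 below every other library. The share over all genes was not taken, so that this count cannot be read as particular to the members.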

How the results depend on the processing

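Of 1131 recomputed values, 1079 kept their direction and side of the threshold or moved by less than the spread, 35 moved and 17 reversed; members at an adjusted p below 0.05 stayed at 0 in every setting. No paired analysis was possible because the groups share no replicate numbers. Counts of members at an unadjusted p below 0.05 were few and did move. The share over all genes was taken for the main edgeR fit only, so that the counts of other settings cannot be set against it. In the single- versus five-foundress comparison there were 2, against 0 with edgeR's own filter, 4 with 23 libraries and 1 with DESeq2, and 0 to 3 when 1 library was left out (0 without single-foundress replicate 1). Between five- and 10-foundress pools there were 0, against 6 with limma-voom and 0 to 2 with 1 library left out (2 without 10-foundress replicate 17). In the single- versus 10-foundress comparison there were 3, against 0 with the filter, 9 with limma-voom, 1 with DESeq2 and 2 to 6 with 1 library left out, 6 being without 10-foundress replicate 17. Overall there was 1, against 2 with the earlier edgeR fit, 0 with the filter, 4 with 23 libraries, 9 with limma-voom, 0 with DESeq2 and 0 to 4 with 1 library left out (0 without single-foundress replicate 1 or 4, 4 without 10-foundress replicate 17). The cause was not tested, except that the filter removes members with few reads. The number of transcribed members was 43 for any read and 8 at 10 CPM. The median r between members was 0.30 to 0.40 with 1 library left out and 0.20 to 0.57 in the other settings. Small log2 fold changes changed sign as single libraries were left out: CPR16 from -0.14 to 0.11 between the single- and five-foundress groups, CPR19 from -0.39 to 0.10 and CPR49 from -0.0753 to 0.15 between the five- and 10-foundress groups, the last also with limma-voom at -0.12. Between the single- and 10-foundress groups the change of CPR19 went from -0.68 to -0.16, and that of CPR16 from -0.49 to -0.09, with 1 library left out. In the other settings they reached -0.94 and -0.91. The r of CPR49 with the germline genes was -0.0847 with 23 libraries. Depth limits what can be said of the 16 members below 0.1 CPM.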

Other observations

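The genes whose pattern over the 22 pools was most like the mean standardized log2 level of the 18 transcribed members, among 7574 genes with a mean of 10 CPM or more that are not members, were LOC100119210 (r = 0.91), LOC100118137 (0.90), LOC100116270 (0.89), LOC100120467 (0.89) and LOC100123897 (0.89). For the block with CPR19 they were led by LOC100120905 (0.93), and for the block with CPR49 by the serine protease gene SP120 (0.96), with the serine protease homologue SPH126 at 0.93. SP120 ranged from 48.0 to 157.7 CPM. The blocks were drawn from the same pools, and these values are given as descriptions.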
